A study of Homo sapiens with 43 samples.

Results

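The washout change of dexamethasone 1 µM is the part of the response to this synthetic glucocorticoid that differed between day 6, after 3 days without the hormone, and day 3, at the end of 3 days with it. It was measured in HMC3, an immortalised human cell line sold as microglia, by sequencing total RNA. For each gene it is the difference on day 6 between dexamethasone and vehicle, minus the same difference on day 3, so a value above 0 means that the gene stood higher against vehicle on day 6 than on day 3. It rests on 22 of the 43 libraries of the series: 3 of dexamethasone 1 µM on day 6, 4 of vehicle on day 6, 3 of dexamethasone 1 µM on day 3 and 12 of vehicle on day 3. The libraries were picked by their labels alone, and no measured value entered the choice.

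The cells of every group were of the same passage, and each flask was harvested on its own on day 3, when equal numbers of viable cells were put into new flasks with plain medium for the next 3 days. Cells that had carried dexamethasone or its ethanol vehicle were handled alike, so the day 6 vehicle cells had also lost their ethanol. The vehicles of the 2 dexamethasone doses (1 and 0.01 µM) and of the 2 hydrocortisone doses (10 and 0.01 µM) were 4 label groups on each day; those of day 6 hold 1 library each. HMC3 is 1 cell line, and the labels give separate flasks but no separate cultures, so the p-values reflect the spread from flask to flask, which may be technical. In bulk RNA, fewer cells of a kind and less RNA per cell cannot be told apart.

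Glucocorticoids enter the cell and bind the glucocorticoid receptor, which sits in the cytoplasm with heat shock protein chaperones until it is bound. The receptor then moves to the nucleus, where it switches on genes through its own DNA elements and holds back others, in part through AP-1 and NF-kB, the transcription factors of growth and inflammation signals. When the hormone is gone the receptor returns to its chaperones, and messenger RNAs drift back at a pace set by their own synthesis and decay. In microglia, glucocorticoids are known for damping inflammatory genes.

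Total counts ran from 11165431 to 24426643 per library and, without the ribosomal RNA genes of chromosome 21, from 2104861 to 15494603. Those ribosomal genes took 12.6 to 64.4% of the counts in dexamethasone libraries of day 6, 19.2 to 77.1% in vehicle libraries of day 6, 23.2 to 76.1% in dexamethasone libraries of day 3 and 13.9 to 91.4% in vehicle libraries of day 3. Of the 43 libraries 7 were above 75%, 4 of them among the 22; without the 7, 253 genes were called for the washout change, and 309 were called with the ribosomal genes removed, against 321 with all libraries and genes. Of 24 microglia markers 8 were measured and 3 had a median above 1 CPM (counts per 1000000); CSF1R, the microglial growth factor receptor, stayed at or below 0.950 CPM in each of the 22 libraries. The 14 fibroblast and pericyte markers were all measured and summed to 5150 to 5820 CPM in dexamethasone libraries of day 6, 4320 to 5030 CPM in vehicle libraries of day 6, 5360 to 5770 CPM in dexamethasone libraries of day 3 and 4400 to 5470 CPM in vehicle libraries of day 3. The label of microglia therefore rests on few of the defining markers.

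Most genes did not pass the test for the washout change, and those that did mostly moved toward vehicle. Of 16816 genes tested, 321 (1.91%) passed an adjusted p of 0.05 in edgeR's quasi-likelihood test: 198 (1.18%) were higher after washout and 123 (0.731%) lower. The change was at least 2-fold in 41 of the genes that were higher (0.244% of all tested) and 22 of those that were lower (0.131%). Its median over all genes tested was 0.02 on the log2 scale, and the 95% interval reached 0.29 to either side in the median gene of at least 1 log2 CPM. Of the 198 genes, 187 had been called lower than vehicle on day 3, and 107 were still called lower on day 6. Of the 123 genes, 116 had been called higher than vehicle on day 3, and 47 were still called higher on day 6. The count fell to 155 without replicate 4 of dexamethasone on day 6 and to 184 without replicate 3 of dexamethasone on day 3, and it was 95 with the vehicle of the high dexamethasone dose alone, which has 1 library on day 6. With that vehicle alone, TSC22D3, CERNA2, UGT2B7, PTK2B, SLC46A3, HOGA1, IRS2, CEBPD, RGS4, KRTAP2-3, IL11, F3, CD44, ETV4, PAPPA and AXL, each described with its values in the paragraphs on its group, kept their direction and lost their call. The same was true of MT2A, ABCB1, TP53I3 and DNAJA1, described under the other observations. The day 3 libraries enter the washout change with the opposite sign, so a move toward vehicle is in part fixed by how the change is built.

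The vehicle libraries themselves differed little between the days. Between day 6 and day 3, 81 genes (0.482%) were called in vehicle, against 1219 (7.25%) in the dexamethasone libraries. Among the 321 genes, 13 of those higher and 5 of those lower after washout were also called in vehicle. The median difference between the days in the 198 genes was 0.60 in the dexamethasone libraries and -0.01 in vehicle (log2), and in the 123 genes it was -0.58 and 0.05.

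The effect of dexamethasone on day 6 was smaller than on day 3 in number of genes, but not gone. Against vehicle, 2038 genes (12.1%) were called on day 6 and 4972 (29.6%) on day 3, from different libraries. On day 6, 6.18% of genes were called higher and 5.93% lower, and on day 3, 14.8% were called higher and 14.7% lower. The 2 lists shared 1599 genes in the same direction, which is 78.5% of the day 6 list and 32.2% of the day 3 list, and 8 genes were called in opposite directions. At 2-fold or more, 256 genes were shared, 65.3% of the day 6 list and 30.3% of the day 3 list, and 0 genes were opposite; at that size 1.71% of all genes were higher and 0.618% lower on day 6, and 2.95% higher and 2.08% lower on day 3. Without replicate 2 of dexamethasone on day 6, 1189 genes were called on that day. The groups on day 6 hold 7 libraries against 15 on day 3, so the 2 counts do not have the same power.

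The size of what was left differed from gene to gene. Among genes of at least 1 log2 CPM called higher by 2-fold or more on day 3 (136 genes), the median gene kept 66.8% of its log2 effect on day 6, with quartiles of 52.5 and 81.9%. Among the 191 genes called lower by 2-fold or more on day 3, the median gene kept 53.7%, with quartiles of 42.5 and 66.4%. The choice of genes by their day 3 values itself lowers these shares. Under 25% was left in 2 genes of the 136 and in 12 of the 191.

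**Figure D1:**
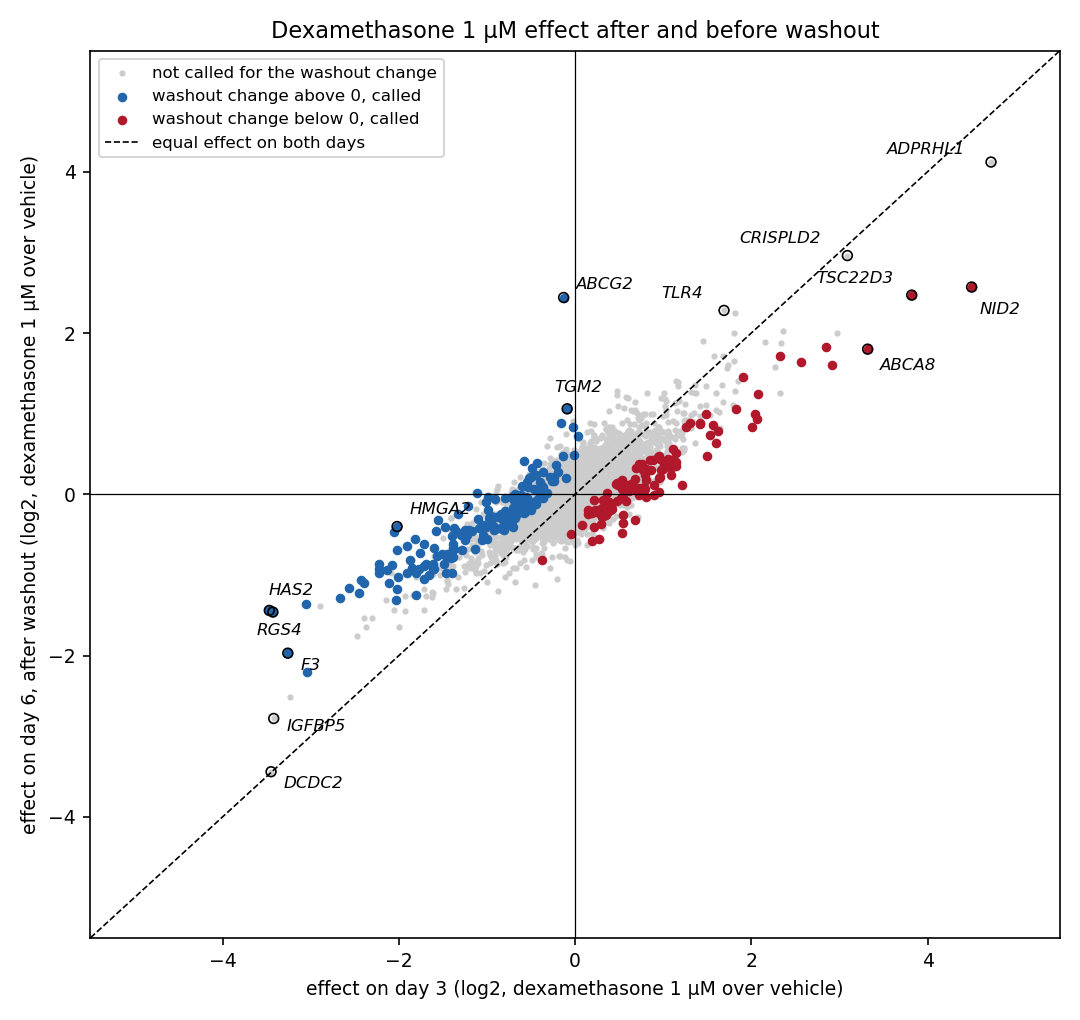
Each point is a gene of at least 1 log2 CPM. The vertical axis gives the effect of dexamethasone 1 µM over vehicle on day 6, after washout, and the horizontal axis the effect on day 3 (both log2), blue and red points are genes called for the washout change, and the dashed line marks equal effects. Most blue points lie lower left, above the dashed line, and most red points upper right, below it, while CRISPLD2 and DCDC2 lie near the line.

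The largest falls after washout were in genes that dexamethasone had raised on day 3. NID2 encodes nidogen 2, a linker protein of basement membranes (chr14:52004803-52069228, minus strand, GRCh38). It stood at 21.4, 18.9 and 17 CPM in the dexamethasone libraries of day 6, against 2.70, 2.81, 4.85 and 2.89 CPM in the vehicle libraries of day 6. On day 3 it stood at 70.9, 65.7 and 76.5 CPM in the dexamethasone libraries, against 2.36 to 3.95 CPM in vehicle (median 3.19). The dexamethasone libraries of either day lay above every vehicle library, and those of day 6 lay well below those of day 3. The effect was 2.57 ± 0.13 on day 6 and 4.50 ± 0.09 on day 3 (log2 ± SE), and the washout change was -1.93 ± 0.16 (adjusted p = 1.69e-12, edgeR's quasi-likelihood test), a 3.81-fold fall that left 57.2% of the log2 effect.

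ABCA8, a lipid transporter of the ABC family, stood at 45.3, 52.4 and 42.3 CPM in dexamethasone libraries of day 6, against 13.9, 12.5, 13.6 and 13.4 CPM in vehicle libraries of day 6. On day 3 it stood at 121, 118 and 114 CPM with dexamethasone, against 10.1 to 13.8 CPM in vehicle (median 11.8). Again neither day had any overlap, and the level after washout was intermediate. Its washout change was -1.52 ± 0.13 (adjusted p = 1.69e-12), with 54.2% of the log2 effect left.

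TSC22D3 encodes GILZ, a glucocorticoid-induced protein that restrains NF-kB and AP-1. It stood at 18.6, 15.3 and 12.2 CPM in dexamethasone libraries of day 6, against 2.55, 2.54, 3.07 and 2.99 CPM in vehicle libraries of day 6. With dexamethasone on day 3 it stood at 48.6, 56.6 and 52.6 CPM, against 2.63 to 4.44 CPM in vehicle (median 3.86). The groups did not overlap on either day. The washout change was -1.35 ± 0.24 (adjusted p = 0.00085), a 2.56-fold fall, and 64.6% of the log2 effect was left. With the vehicle of the high dexamethasone dose alone the change was -1.66 and not called (adjusted p = 0.198).

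The other large falls had the same shape. CERNA2, a noncoding RNA, changed by -1.32 ± 0.18, UGT2B7, a glucuronosyltransferase that conjugates steroids, by -1.05 ± 0.17, PTK2B, a calcium-dependent focal adhesion kinase, by -1.18 ± 0.21, and SLC46A3, a lysosomal transporter, by -1.15 ± 0.28. Each kept 41.7 to 54.8% of its log2 effect. HOGA1, a mitochondrial enzyme of hydroxyproline breakdown, changed by -1.09 ± 0.25, and its day 6 libraries overlapped vehicle: 2.79, 2.43 and 2.09 CPM with dexamethasone and 2.34, 2.51, 1.78 and 2.47 CPM in vehicle. On day 6, 9.78% of its log2 effect was left. The calls of SLC46A3 and HOGA1 were lost without replicate 4 of dexamethasone on day 6, and that of SLC46A3 also without replicate 3 or 4 of dexamethasone on day 3 or without the vehicle of the low dexamethasone dose on day 6.

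**Figure D2:**
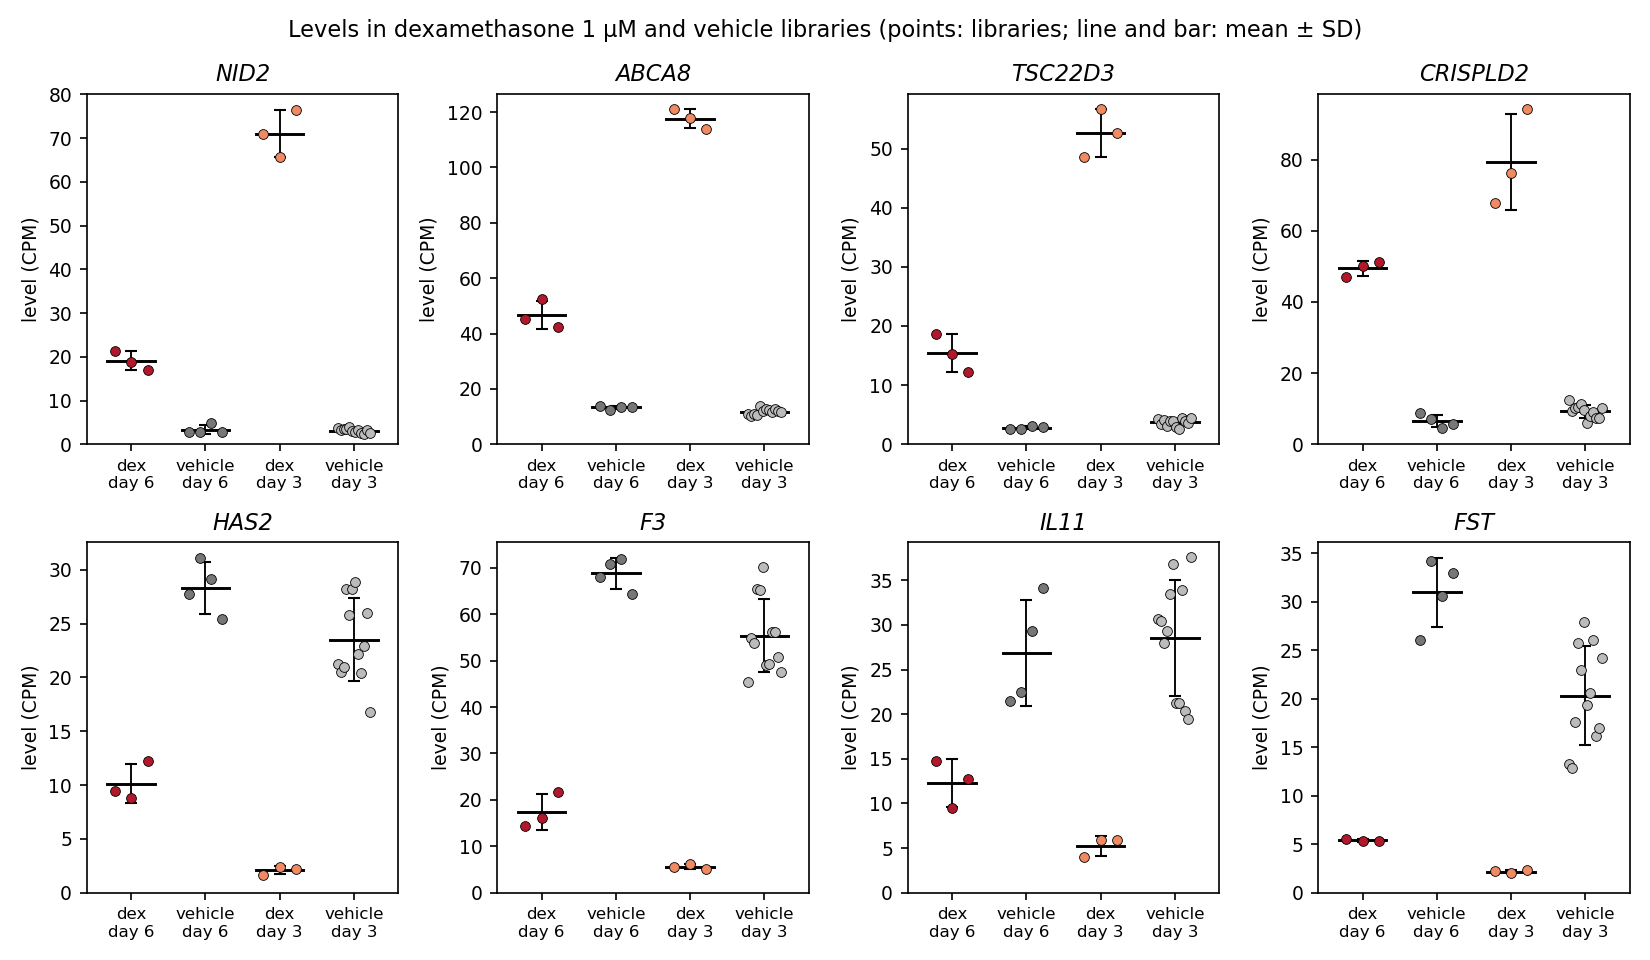
Levels in CPM of the scaled library (linear axis from 0) in dexamethasone 1 µM and vehicle libraries of day 6 and then of day 3. Points are libraries, lines are means and bars 1 SD (n = 3, 4, 3 and 12 in the order of the axis). In the upper row the day 6 dexamethasone libraries lie between vehicle and day 3 for NID2, ABCA8 and TSC22D3 and nearer to day 3 for CRISPLD2, and in the lower row they lie between day 3 and vehicle for HAS2, F3 and IL11 and near day 3 for FST.

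Of the 8 largest gains after washout, those other than ABCG2 were in genes called lower than vehicle on day 3. HAS2, the main hyaluronan synthase of mesenchymal cells, stood at 9.41, 8.80 and 12.2 CPM in dexamethasone libraries of day 6, against 27.7, 31.1, 29.1 and 25.4 CPM in vehicle libraries of day 6. On day 3 it stood at 1.69, 2.38 and 2.19 CPM with dexamethasone, against 16.8 to 28.9 CPM in vehicle (median 22.6). Every dexamethasone library lay below every vehicle library of its day. The washout change was 1.97 ± 0.22 (adjusted p = 9.98e-09), a 3.92-fold gain, with 42.5% of the log2 effect left.

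RGS4, which dampens signalling through G proteins, stood at 1.79, 2.43 and 1.41 CPM in dexamethasone libraries of day 6, against 4.18, 5.39, 5.5 and 4.36 CPM in vehicle libraries of day 6. With dexamethasone on day 3 it was at 0.356, 0.503 and 0.219 CPM, against 2.68 to 7 CPM in vehicle (median 4.54). The groups did not overlap, and the washout change was 2.03 ± 0.44 (adjusted p = 0.00085). HMGA2, a chromatin protein of growing and embryonic cells, came closer to vehicle: 8.74, 8.80 and 9.45 CPM in dexamethasone libraries of day 6, against 10.3, 14.2, 13.4 and 10.1 CPM in vehicle libraries of day 6. Its washout change was 1.63 ± 0.22 (adjusted p = 5.25e-07), and 19.6% of its log2 effect was left.

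CPA4, a secreted carboxypeptidase, stood at 63.8, 56.8 and 72.3 CPM in dexamethasone libraries of day 6, against 114, 110, 77.8 and 64.8 CPM in vehicle libraries of day 6. The groups of day 6 overlapped, while those of day 3, at 18.9 to 22.9 CPM with dexamethasone and 75.8 to 108 CPM in vehicle, did not. The washout change was 1.6 ± 0.22 (adjusted p = 4.53e-05). NLRP10, an inflammasome family member, changed by 1.41 ± 0.22 and KRTAP2-3, a keratin-associated gene whose near-identical neighbours may share its reads, by 1.69 ± 0.40, a call that was lost without replicate 4 of dexamethasone on day 6 or without replicate 3 or 4 on day 3. ABCG2, an efflux transporter, had the largest fitted value (2.57, adjusted p = 0.0186), but it turned on 1 library: the vehicle of the high dexamethasone dose on day 6 held 0 CPM, the other day 6 vehicle libraries 0.996 to 2.34 CPM and the dexamethasone libraries of day 6 1.98 to 2.72 CPM. With the vehicle libraries of a day pooled as 1 group it was not called.

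AP-1 is one of the factors that the receptor is known to restrain, and the promoters of the genes called for the washout change were read for its element. In the window from 250 bases before to 50 after the start site, the AP-1 element TGAGTCA or its reverse complement TGACTCA was present in 12 of 141 genes that were higher after washout and had a RefSeq promoter (8.51%), in 2 of 89 that were lower (2.25%), in 2.98% of the 10996 tested genes with a promoter and in 4.92% of all 27305 promoters. Of the 65 genes taken by the naming rule, 47 had a promoter and 5 held the element: CPA4, IL11, PLAUR, F3 and MT2A. MT2A was called lower after washout (-0.46) and the others higher. The glucocorticoid receptor element, read as GNACA and TGTNC with 3 bases of any kind between them, was present in 1 of the 141, in 0 of the 89 in 0.209% of the tested genes and in 0.388% of all promoters. The variant TGACGTCA, searched as well, was in 2.13% of the 141, 2.25% of the 89, 3.36% of the tested genes and 1.98% of all promoters. Longer distances were not searched, and a match of letters is not a bound site. Of the 12 genes higher after washout with the match, the promoters of the 4 taken by the naming rule are printed from RefSeq (GRCh38.p14), 5′ to 3′ on the gene's strand, with the match in capitals, to show where it lies.
IL11 (chr19:55370414-55370713, minus strand): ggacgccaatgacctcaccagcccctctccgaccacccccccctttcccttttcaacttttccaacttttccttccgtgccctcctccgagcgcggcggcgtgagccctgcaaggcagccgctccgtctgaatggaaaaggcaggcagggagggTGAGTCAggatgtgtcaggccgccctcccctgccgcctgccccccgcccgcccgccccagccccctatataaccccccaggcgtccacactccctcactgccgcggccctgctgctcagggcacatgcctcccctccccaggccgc
PLAUR (chr19:43670120-43670419, minus strand): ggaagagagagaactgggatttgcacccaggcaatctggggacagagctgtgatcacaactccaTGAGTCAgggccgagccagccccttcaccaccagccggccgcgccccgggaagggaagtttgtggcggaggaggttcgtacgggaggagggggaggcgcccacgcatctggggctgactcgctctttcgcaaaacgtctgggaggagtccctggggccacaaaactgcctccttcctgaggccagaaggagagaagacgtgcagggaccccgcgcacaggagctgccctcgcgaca
F3 (chr1:94541710-94542009, minus strand): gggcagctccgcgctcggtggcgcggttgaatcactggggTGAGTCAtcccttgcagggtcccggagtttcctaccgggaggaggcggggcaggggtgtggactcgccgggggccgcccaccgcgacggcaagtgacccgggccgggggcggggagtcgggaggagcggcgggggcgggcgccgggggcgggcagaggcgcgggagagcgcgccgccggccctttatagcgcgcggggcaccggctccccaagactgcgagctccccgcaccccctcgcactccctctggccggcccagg
CPA4 (chr7:130292911-130293210, plus strand): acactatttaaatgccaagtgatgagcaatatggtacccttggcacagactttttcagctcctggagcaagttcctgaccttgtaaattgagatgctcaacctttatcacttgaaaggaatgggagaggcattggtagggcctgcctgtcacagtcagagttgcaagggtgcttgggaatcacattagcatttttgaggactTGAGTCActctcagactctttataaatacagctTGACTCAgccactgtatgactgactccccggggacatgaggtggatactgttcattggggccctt

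The match began 96 bases before the start site in IL11, 186 in PLAUR and 210 in F3, and CPA4 held 2 matches, the farther beginning 48 bases before the start. IL11 encodes a fibrosis-related cytokine of the IL-6 family. It stood at 14.7, 9.47 and 12.7 CPM in dexamethasone libraries of day 6, against 21.5, 22.5, 29.3 and 34.1 CPM in vehicle libraries of day 6, and at 4, 5.86 and 5.92 CPM in dexamethasone libraries of day 3, against 19.5 to 37.6 CPM in vehicle (median 29.9). Its libraries did not overlap vehicle on either day, and the washout change was 1.37 ± 0.31 (adjusted p = 0.0131), a call that was lost without replicate 2 of dexamethasone on day 6 or on day 3. FOSL1, which encodes a subunit of AP-1 itself, was at 37.6, 32.8 and 37.0 CPM in dexamethasone libraries of day 6, against 37.8, 41.6, 45.9 and 46.1 CPM in vehicle libraries of day 6. Its washout change was 1.09 ± 0.13 (adjusted p = 1.85e-07), and it was the 1 gene called among 23 immediate early genes tested, whose median was -0.07.

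Genes of the coagulation and plasminogen system, which controls clotting and pericellular proteolysis, gave 3 calls of 11 tested, all higher after washout, beside 1.91% of all genes in either direction. The list's median was 0.19, against 0.02 for all genes. F3, tissue factor, stood at 14.3, 16.2 and 21.8 CPM in dexamethasone libraries of day 6, against 68.1, 70.8, 72.0 and 64.4 CPM in vehicle libraries of day 6, and at 5.60, 6.22 and 5.04 CPM in dexamethasone libraries of day 3, against 45.4 to 70.1 CPM in vehicle (median 54.4). It moved toward vehicle but stayed far below it, with a washout change of 1.29 ± 0.24 (adjusted p = 0.00128) and 60.5% of the log2 effect left. PLAUR, the urokinase receptor, changed by 1.09 ± 0.16 and SERPINE2, a protease inhibitor, by 0.84 ± 0.15.

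Of 10 tested genes of the hyaluronan system 2 were called (1.91% of all genes were), both higher: HAS2 and CD44, the hyaluronan receptor (1.13 ± 0.18, adjusted p = 0.000371). The list's median was 0.43. CD44 stood at 43.9, 50.2 and 54.2 CPM in dexamethasone libraries of day 6, against 77.3, 75.3, 64.5 and 54.9 CPM in vehicle libraries of day 6, which lie close above. Of 19 genes listed under MAP kinase feedback, which are linked to growth factor signalling but do not all restrain it, 2 were called, beside the same 1.91%. Both were higher: RGS4 and ETV4 (0.79 ± 0.17). That list's median was 0.37, and 17 of its 19 members had a value above 0.

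Extracellular matrix genes went both ways: of 30 tested, 2 were called higher and 5 lower (23.3%, against 1.91% of all genes), with a median of -0.12. THBS2, thrombospondin 2, an inhibitor of vessel growth, changed by 0.76 ± 0.10 (adjusted p = 1.85e-07) from below vehicle. COL11A1, a minor fibrillar collagen, stood at 81.7, 74.2 and 72.0 CPM in dexamethasone libraries of day 6, against 107, 93.8, 125 and 125 CPM in vehicle libraries of day 6, and at 154, 124 and 140 CPM in dexamethasone libraries of day 3, against 96.3 to 133 CPM in vehicle (median 117). Dexamethasone libraries thus lay below vehicle on day 6 and overlapped it at its upper end on day 3. The effect was -0.56 ± 0.09 on day 6 and 0.27 ± 0.07 on day 3, each past the threshold, and the washout change was -0.83 ± 0.11 (adjusted p = 2.6e-06). COL8A1 and COL5A2, collagens named here after their values were seen, also had opposite signs. COL8A1 had -0.28 ± 0.09 on day 6 and 0.30 ± 0.07 on day 3 (adjusted p = 0.0279 and 0.00137), and COL5A2 -0.21 ± 0.07 on day 6 and 0.25 ± 0.06 on day 3 (adjusted p = 0.0294 and 0.000284).

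The pregnancy-specific glycoproteins, a family of secreted immunoglobulin-like proteins on chromosome 19 first known from placenta, had all 10 tested members called lower than vehicle on day 6 and on day 3, beside 5.93% and 14.7% of all genes. The washout change was called in 4 of the 10, beside 1.91% of all genes, all higher: PSG2 (1.37 ± 0.23), PSG4 (0.92 ± 0.13), PSG1 (0.84 ± 0.22) and PSG5 (0.67 ± 0.14), and the list's median was 0.88. PSG4 was at 23.2, 21.6 and 23.4 CPM in dexamethasone libraries of day 6, against 44.2, 53.8, 44.0 and 40.0 CPM in vehicle libraries of day 6. With dexamethasone on day 3 it was at 10.1, 10.2 and 11.2 CPM, against 28.8 to 44.1 CPM in vehicle (median 40.5). The members are so alike that reads may be split among them, so they are not independent genes.

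In the insulin-like growth factor axis 2 of 12 tested genes were called, beside 1.91% of all genes, both higher, with a list median of -0.04. IGFBP3, a carrier of the growth factors, changed by 0.71 ± 0.10 (adjusted p = 3.14e-06); its vehicle libraries themselves differed between the days by -0.34 (adjusted p = 0.000363), and with the vehicle libraries of a day pooled the call was lost (adjusted p = 0.159). PAPPA, the protease that frees them from their carriers, returned to vehicle: 22.6, 17.7 and 19.9 CPM in dexamethasone libraries of day 6, against 18.5, 15.8, 24.3 and 25.9 CPM in vehicle libraries of day 6. On day 3 it had stood at 11.4, 9.10 and 10.2 CPM with dexamethasone, against 14.9 to 30.0 CPM in vehicle (median 19.7). Its effect was -0.03 ± 0.11 on day 6 and -0.99 ± 0.12 on day 3, and the washout change 0.96 ± 0.16 (adjusted p = 0.000129).

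TGFBI, an adhesion protein induced by TGF-beta, was 1 of 2 called among 27 TGF-beta and YAP/SRF response genes, whose median was 0.08. It stood at 65.7, 56.8 and 70.8 CPM in dexamethasone libraries of day 6, against 123, 96.3, 97.4 and 101 CPM in vehicle libraries of day 6, and at 39.6, 37.1 and 37.2 CPM in dexamethasone libraries of day 3, against 138 to 165 CPM in vehicle (median 156). The vehicle level was itself lower on day 6 (-0.57, adjusted p = 1.93e-06), so the washout change of 1.33 ± 0.12 (adjusted p = 4.01e-10) holds a part from vehicle and a part of 0.77 from the dexamethasone libraries. AXL, a receptor for the clearance of dying cells, was the other, at 0.31 ± 0.09 (adjusted p = 0.0404), and its call was lost in 11 of 33 alternatives.

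Of 40 tested classic targets of the glucocorticoid receptor, 15 were called higher and 1 lower on day 6, beside 6.18% and 5.93% of all genes, and 22 were called higher and 3 lower on day 3, beside 14.8% and 14.7%. For the washout change 3 were called, all lower (TSC22D3, IRS2 and CEBPD), which is 7.5% beside 1.91% of all genes, and 28 of the 40 had a value below 0, with a median of -0.26. IRS2, an insulin receptor substrate, changed by -0.63 ± 0.14 (adjusted p = 0.0063), a call lost without replicate 4 of dexamethasone on day 6 or without the vehicle of the low dexamethasone dose on day 6. CEBPD, a transcription factor of acute responses, changed by -1.37 ± 0.35 (adjusted p = 0.0277) at levels of 1.23 to 1.63 CPM with dexamethasone on day 6 and 3.51 to 6.59 CPM on day 3, and its call was lost in 7 of 32 alternatives.

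TSC22D3 passed, while FKBP5, PER1, KLF9 and DUSP1, also used as markers of the receptor, lay on the same side and did not. FKBP5, the chaperone that lowers the receptor's affinity for its hormone, stood at 51.7, 54.4 and 60.5 CPM in dexamethasone libraries of day 6, against 32.9, 28.5, 30.4 and 27.5 CPM in vehicle libraries of day 6. On day 3 it stood at 101, 76.9 and 78.1 CPM with dexamethasone, against 27.6 to 40.4 CPM in vehicle (median 33.2). It was thus still above every vehicle library after washout, and its washout change was -0.44 ± 0.17 (95% interval -0.78 to -0.10, adjusted p = 0.235). PER1, a clock gene that the receptor activates directly, stood at 24.5, 18.5 and 16.4 CPM in dexamethasone libraries of day 6, against 4.53, 3.83, 6.96 and 7.26 CPM in vehicle libraries of day 6; its washout change was -0.47 ± 0.25 (adjusted p = 0.477). KLF9, a transcriptional repressor, had -0.67 ± 0.20 (adjusted p = 0.0604) and DUSP1, the phosphatase that switches off p38 and JNK, -0.36 ± 0.42 (adjusted p = 0.808). NR3C1, the receptor itself, had an effect of -0.30 on day 6 and -0.56 on day 3 (log2), each past the threshold, and its washout change was 0.25 ± 0.10 (adjusted p = 0.239).

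**Figure D3:**
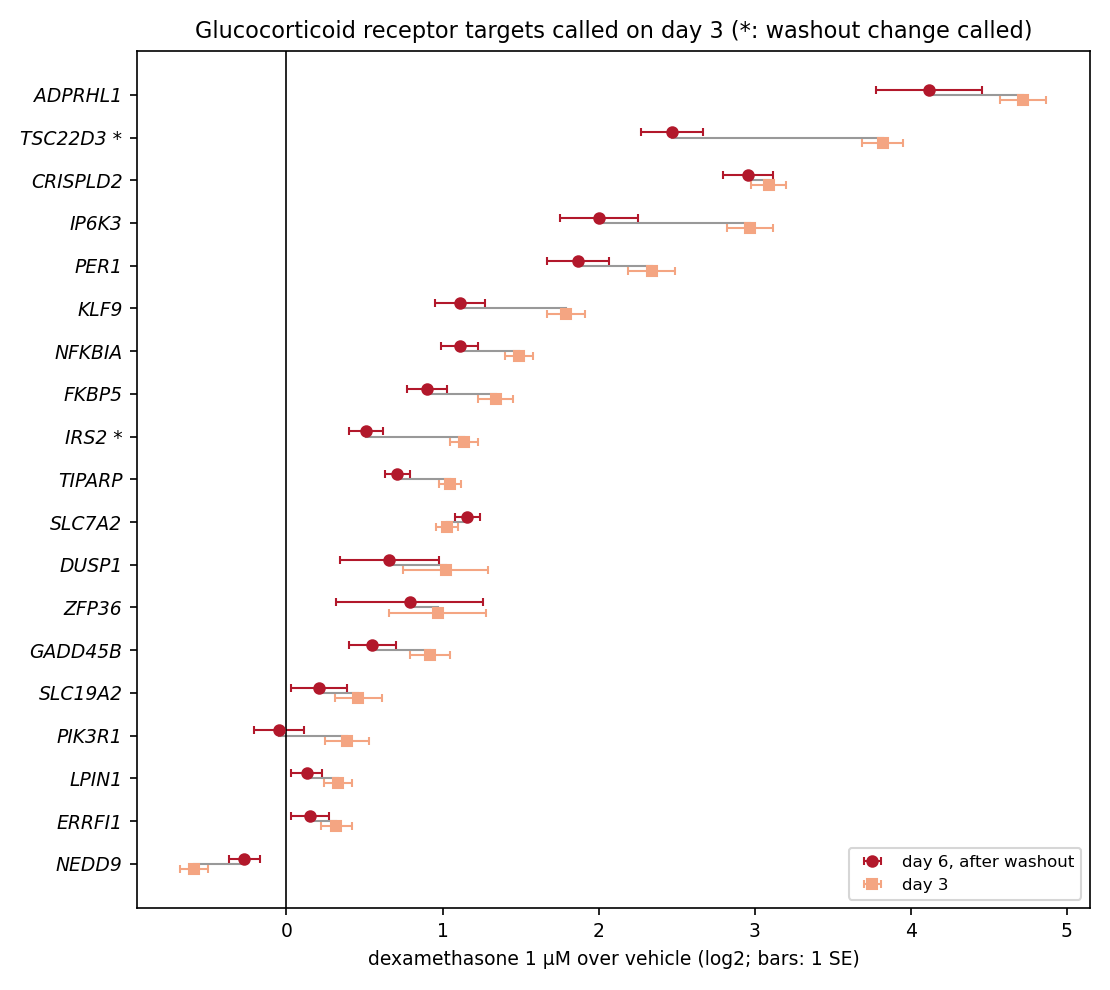
Effects of dexamethasone 1 µM over vehicle (log2, bars 1 SE) on day 6, after washout (circles), and on day 3 (squares) for receptor targets of at least 1 log2 CPM that were called on day 3. An asterisk marks a called washout change. Circles lie left of squares for most genes that were higher, and CRISPLD2 and SLC7A2 have nearly coinciding symbols.

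Some of the strongest effects against vehicle were still large on day 6. CRISPLD2, a secreted lipopolysaccharide-binding protein, stood at 47.0, 50.1 and 51.2 CPM in dexamethasone libraries of day 6, against 8.71, 7.10, 4.53 and 5.74 CPM in vehicle libraries of day 6. On day 3 it stood at 67.8, 76.1 and 94.1 CPM with dexamethasone, against 5.94 to 12.5 CPM in vehicle (median 9.52). Neither day had an overlap, and the effect was 2.96 ± 0.16 on day 6 and 3.09 ± 0.11 on day 3, so that the washout change was -0.13 ± 0.19 (95% interval -0.52 to 0.27, adjusted p = 0.869). Its level with dexamethasone did fall, by -0.68 from day 3 to day 6 (log2, adjusted p = 0.000481, edgeR's quasi-likelihood test). Vehicle differed by -0.55 in the same direction (adjusted p = 0.0822), so the effect against vehicle changed little. ADPRHL1, a pseudoenzyme of the ADP-ribosylhydrolase family known from heart, had an effect of 4.12 ± 0.34 on day 6 and 4.72 ± 0.15 on day 3. Its washout change was -0.59 ± 0.38 (95% interval -1.35 to 0.16, adjusted p = 0.624). The dexamethasone libraries themselves stood at 13, 10.3 and 9.41 CPM on day 6 and 22.2, 27.7 and 30 CPM on day 3, a difference of -1.28 (log2, adjusted p = 6.58e-10, edgeR's quasi-likelihood test). Vehicle was near the floor, at 0.713, 0.456, 0.324 and 1.42 CPM on day 6 and 0.506 to 1.47 CPM on day 3.

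TLR4, the receptor for bacterial lipopolysaccharide, stood at 11.6, 13.5 and 12.3 CPM in dexamethasone libraries of day 6, against 2.90, 2.51, 2.43 and 2.37 CPM in vehicle libraries of day 6. With dexamethasone on day 3 it was at 7.83, 9.52 and 8.33 CPM, against 0.543 to 3.32 CPM in vehicle (median 2.63). The dexamethasone libraries of day 6 were thus the highest of the 22, while the washout change, 0.59 ± 0.24, did not pass (adjusted p = 0.24). Among genes that were lower, FST, follistatin, the activin antagonist, stood at 5.54, 5.37 and 5.30 CPM in dexamethasone libraries of day 6, against 26.1, 34.2, 30.6 and 33.0 CPM in vehicle libraries of day 6, and had an effect of -2.51 on day 6 and -3.23 on day 3. IGFBP5 had -2.78 on day 6 and -3.42 on day 3, and DCDC2, a microtubule-binding protein, -3.44 and -3.45. In all 3 of these genes vehicle was itself higher on day 6 than on day 3, by 0.60, 0.50 and 1.64 (adjusted p = 0.00402, 0.00407 and 2.44e-07). The dexamethasone libraries gained 1.32 in FST and 1.14 in IGFBP5 (adjusted p = 0.000869 and 0.00121, edgeR's quasi-likelihood test). In DCDC2, at 0.267 to 0.412 CPM with dexamethasone on day 3, the gain of 1.65 did not pass (adjusted p = 0.0683). The washout changes, not called, were 0.72 for FST (95% interval 0.12 to 1.32), 0.64 for IGFBP5 (0.10 to 1.18) and 0.01 for DCDC2 (-1.30 to 1.32).

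A few genes ended farther from vehicle than they had been with hormone, chosen here after their values were seen. TGM2, a crosslinking enzyme of the matrix, stood at 3.55, 3.94 and 3.64 CPM in dexamethasone libraries of day 6, against 1.88, 1.75, 1.46 and 1.99 CPM in vehicle libraries of day 6. On day 3 the groups overlapped, with 2.85, 2.88 and 2.63 CPM in dexamethasone libraries and 2.26 to 4.62 CPM in vehicle (median 2.91). Its effect was 1.06 ± 0.20 on day 6 and -0.09 ± 0.17 on day 3, and the washout change 1.15 ± 0.26 (adjusted p = 0.00423). Mean vehicle levels went from 3.09 CPM on day 3 to 1.77 CPM on day 6, and dexamethasone means from 2.79 to 3.71 CPM. The change thus holds a part from vehicle and a part from the dexamethasone libraries. TGM2 also changed by 0.93 after the lower dexamethasone dose, 0.66 after the higher hydrocortisone dose and 0.12 after the lower hydrocortisone dose. These values share their vehicles. Of the 321 genes, 22 had a larger effect in size on day 6 than on day 3, 11 in each direction.

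**Figure D4:**
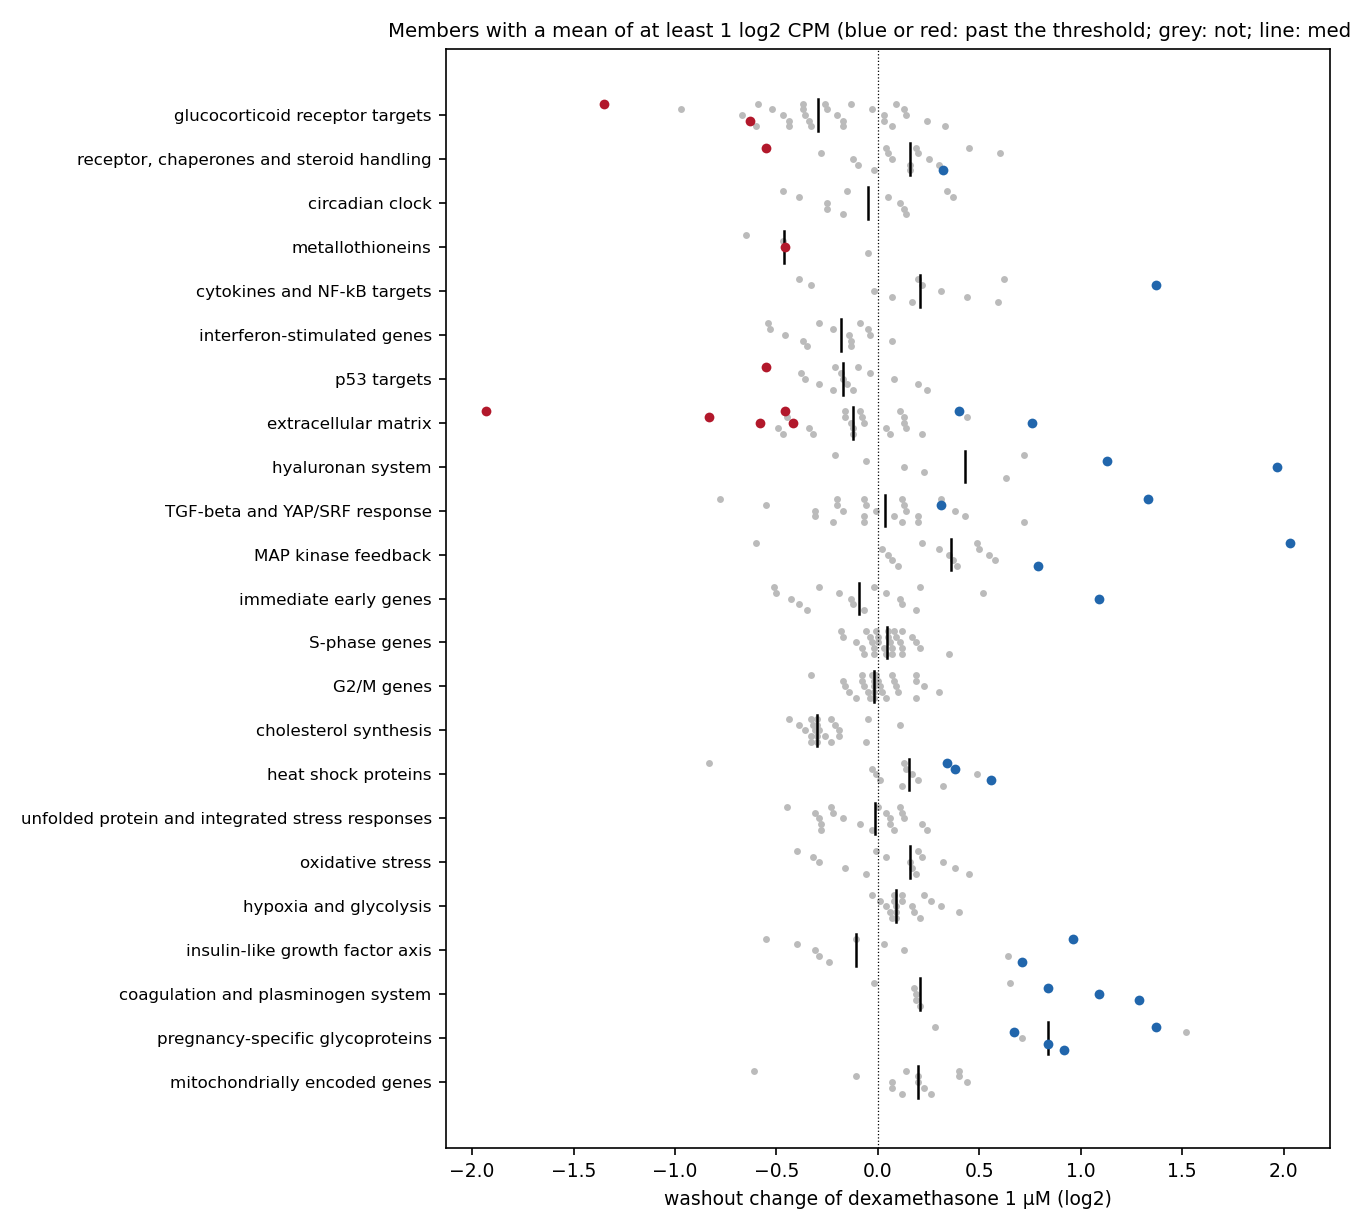
Washout change of dexamethasone 1 µM (log2, horizontal axis) of every tested list member of at least 1 log2 CPM, by list. Blue and red points passed the threshold above and below 0, grey points did not, and the black line is the median of the points shown. RGS4 of the MAP kinase feedback list (2.03) and HAS2 of the hyaluronan list (1.97) lie farthest to the right and NID2 of the matrix list (-1.93) farthest to the left.

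Of the 4 hormone treatments carried through the washout, the nearest to dexamethasone 1 µM were dexamethasone 0.01 µM and hydrocortisone 10 µM, the natural hormone at a dose of its own. In the 136 genes raised by 2-fold or more on day 3 by dexamethasone 1 µM, the median washout change was -0.44 for dexamethasone 1 µM, -0.82 for dexamethasone 0.01 µM, -0.86 for hydrocortisone 10 µM and 0.02 for hydrocortisone 0.01 µM. In the 191 genes lowered it was 0.66, 0.98, 0.95 and 0.11 in the same order. The genes were chosen on the 1 µM libraries and the 4 values share their vehicles, so these medians describe and do not test. The test of the difference between the 1 µM and 0.01 µM changes, in which the vehicles cancel, called 54 of 16816 genes (0.321%), 38 with a higher (0.226%) and 16 with a lower value (0.0951%) at 1 µM. This balance depends on the fit: edgeR without the legacy option called 67, 31 higher and 36 lower. Against hydrocortisone 10 µM, at a different dose, it called 35 (0.208%), 27 higher (0.161%) and 8 lower (0.0476%).

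Several genes that dexamethasone had raised differed between the treatments. CRISPLD2 changed by -0.13 after dexamethasone 1 µM, -1.82 after dexamethasone 0.01 µM and -1.63 after hydrocortisone 10 µM, and the difference of 1.69 between the dexamethasone doses had a 95% interval of 1.29 to 2.09 (adjusted p = 2.18e-06). ADPRHL1 changed by -0.59 after 1 µM and -2.54 after 0.01 µM (adjusted p of the difference 7.96e-07), and ABCA8 by -1.52 and -2.77 (1.28e-07). TSC22D3 changed by -1.35 after dexamethasone 1 µM, -2.69 after 0.01 µM and -2.71 after hydrocortisone 10 µM, with adjusted p-values of the differences of 0.00177 and 0.000585; the difference from hydrocortisone was not called by edgeR without the legacy option (adjusted p = 0.193). NID2, CERNA2 and KLF9 also fell less after 1 µM than after 0.01 µM (adjusted p = 0.0264, 0.000413 and 0.0318). TLR4 and CHST2, a sulfotransferase, had values of opposite sign: 0.59 and 0.45 after 1 µM and -0.81 and -1.28 after 0.01 µM (adjusted p of the differences 0.000714 and 8.81e-06). In TLR4 neither value was called on its own (adjusted p = 0.24 and 0.0588, edgeR's quasi-likelihood test), only their difference.

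Among genes lowered by the hormone, IGFBP3 regained less after 1 µM (0.71) than after 0.01 µM (1.5, adjusted p of the difference 3.84e-05), and so did TGFBI (1.33 and 1.98, adjusted p = 0.03) and EVA1A, a regulator of autophagy (0.85 and 2.02, adjusted p = 0.0061). PAPPA was the other way round, at 0.96 after 1 µM and -0.07 after 0.01 µM (adjusted p = 0.00144). LBH, a transcriptional cofactor, had -0.34 after 1 µM and 0.54 after 0.01 µM (adjusted p = 0.00177). For HAS2 the difference between the doses was -0.30 with a 95% interval of -0.84 to 0.24, and for HMGA2 it was 0.16 with an interval of -0.36 to 0.68, and both intervals hold differences of either sign. Against hydrocortisone 0.01 µM, a dose at which most of these genes hardly moved, 335 genes (1.99%) differed, 177 higher (1.05%) and 158 lower (0.94%).

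**Figure D5:**
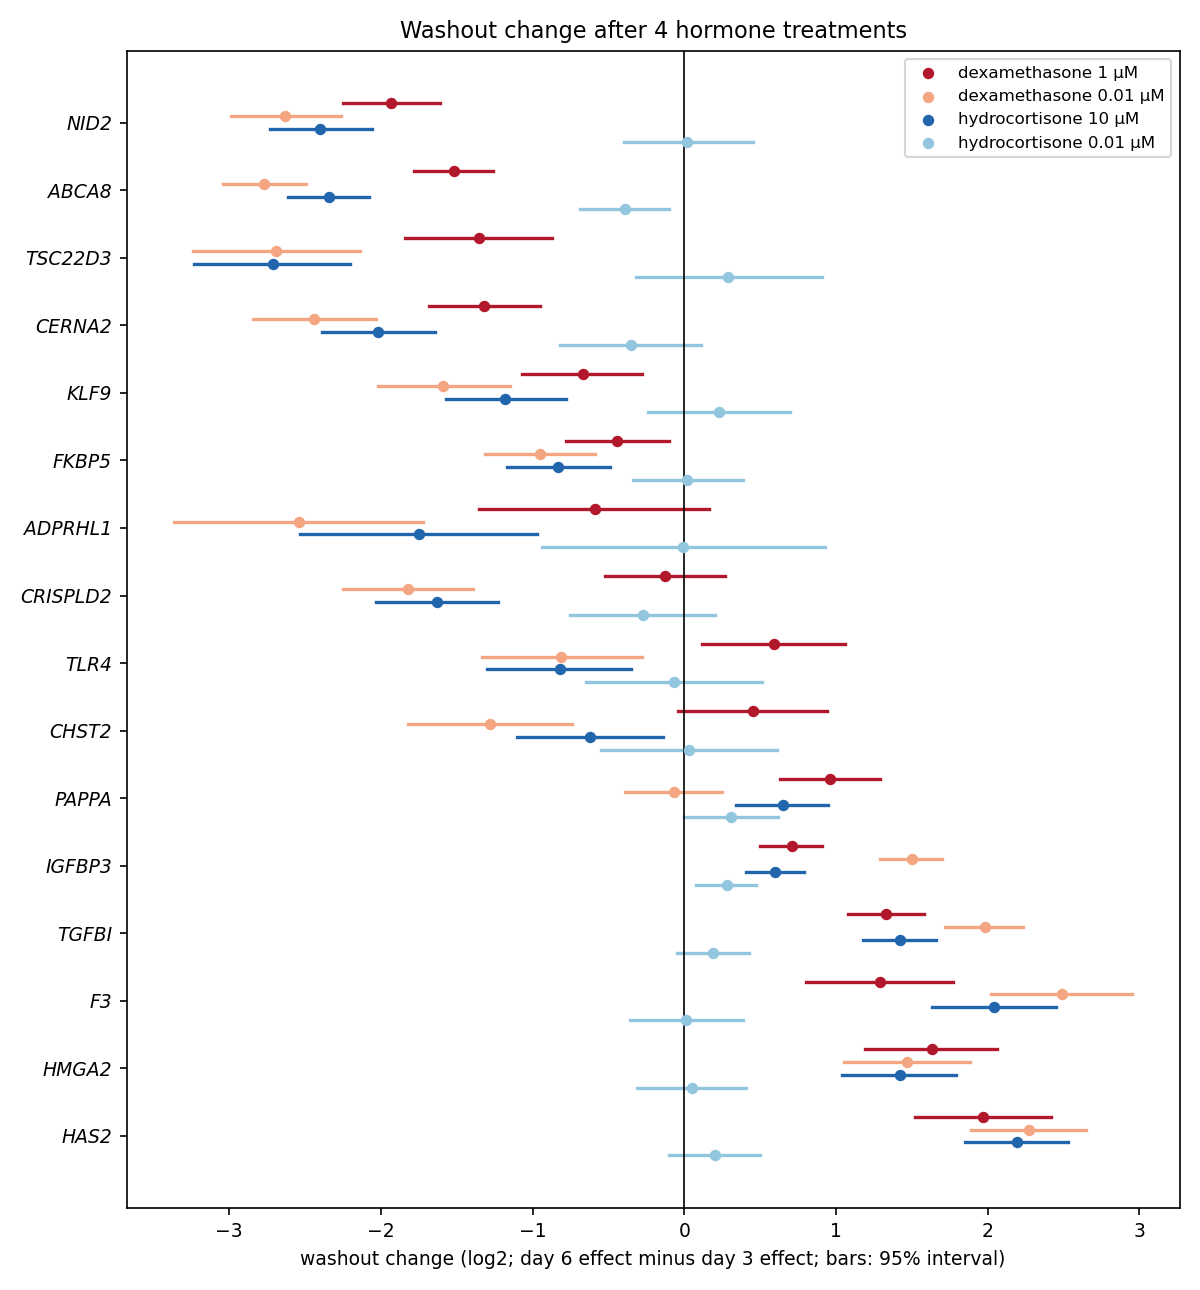
Washout change (log2, points, with 95% intervals as bars) of 16 genes after dexamethasone 1 µM, dexamethasone 0.01 µM, hydrocortisone 10 µM and hydrocortisone 0.01 µM. The intervals for dexamethasone 1 µM lie to the right of those for 0.01 µM in ABCA8, CRISPLD2, ADPRHL1 and PAPPA and overlap them in HAS2 and HMGA2, and those for hydrocortisone 0.01 µM lie near 0.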

How the data were processed

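Total RNA of HMC3 flasks was made into stranded libraries and sequenced as paired ends on a NextSeq 550, per the labels' protocols. The authors deposited 1 table of raw read counts per Ensembl gene (20052 genes, 43 libraries), not normalized, per the file headers and values. FastQC, STAR, featureCounts, Subread and GRCh38 are named by the submitters' processing notes; for versions and the strand setting there is no statement, so reads of overlapping or antisense genes may be mixed. Groups were read from the titles. Symbols came from a current name table (19978 genes), from GENCODE 29 (70) or from neither (4).

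Counts were tested with edgeR 4.0.16 (R 4.3.3; TMM, filterByExpr with a minimum count of 10 and total of 15, glmQLFit with its default options and robust estimation, glmQLFTest) in 1 fit of all 43 libraries with 17 groups and 26 residual degrees of freedom. Each of the 4 vehicle groups of day 6 has 1 library, whose spread is taken from the remaining groups. Adjustment of p-values was by Benjamini-Hochberg over 16816 genes (threshold 0.05). Standard errors and 95% intervals come from the fitted weights. CPM are counts per 1000000 of the TMM-scaled library, and marker sums leave out the ribosomal genes. The test was tried on simulated data: with 200 changed genes it recovered 80% at a log2 change of 1 and 98% at 2, with 5.3% of calls false. The changed genes were drawn from those with a mean above 1 CPM. The simulated spread followed the trend over level, not each gene's own spread, so these rates may be too favourable for the real data. Replicate pairs of the 22 libraries differed by 1.51 to 3.37 times their counting variance, so none was taken as a repeat.

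Named genes are the 8 largest washout changes in each direction past the threshold with at least 1 log2 CPM and no overlap between the dexamethasone libraries of the 2 days once the mean log2 CPM of the vehicle libraries of the same day was subtracted, up to 3 called members of each list by p, the 5 largest day 6 effects in each direction called on both days, the 3 largest called on day 6 with an unadjusted p of at least 0.05 on day 3, the 3 largest differences from each other hormone treatment, and TSC22D3, FKBP5, PER1, KLF9, DUSP1, NR3C1, HAS2 and NID2. Members and lists were chosen with earlier results of these data known. Alternatives were DESeq2 1.42.0, RLE size factors, no filter, removal of ribosomal genes, other choices of libraries and vehicles, a replicate block, leaving out each library, and edgeR without the legacy option, the last added after seeing the data. Promoters are RefSeq's (GRCh38.p14).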

Additional observations from a re-analysis of the deposited data

Results flagged for a closer look

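Differences between hormone treatments in the washout change, each tested in the fit over all genes, were flagged. Between dexamethasone 1 µM and 0.01 µM 54 genes differed, 38 higher and 16 lower at 1 µM, while edgeR without the legacy option called 67, 31 higher and 36 lower. Between dexamethasone 1 µM and hydrocortisone 10 µM, whose doses differ, 35 genes differed, 27 higher and 8 lower, and this count moved to 12 with edgeR without the legacy option. Between dexamethasone 1 µM and hydrocortisone 0.01 µM, whose doses differ as well, 335 genes differed, 177 higher and 158 lower. The vehicles cancel in these differences, and each rests on 12 libraries, 3 per hormone treatment and day.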

How the results depend on the processing

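The 321 calls for the washout change became 322 with DESeq2, 283 with edgeR without the legacy option (chosen after seeing the data), 264 with the vehicle libraries of a day pooled as 1 group, 253 without the libraries above 75% ribosomal RNA and 95 with the vehicle of the high dexamethasone dose alone, where the day 6 vehicle is 1 library. Of the 321, 278 were shared with DESeq2 and 83 with that vehicle alone. Leaving out each of the 22 libraries in turn gave 155 to 341 calls, 1189 to 2091 for the day 6 effect and 3465 to 4976 for the day 3 effect. Calls for the day 6 effect fell to 393 with the vehicle of the high dose alone. The 81 calls between the days in vehicle became 45 with pooled vehicles, 53 without the libraries above 75% ribosomal RNA and 128 with a replicate block of pairs of libraries. The 35 genes that differed from hydrocortisone 10 µM became 12 without the legacy option and 54 with the replicate block of pairs. The cause was not tested. The labels do not say whether the same replicate number on day 3 and day 6 marks the same flask. Correlations of deviations from the mean of a small group cannot settle it. For dexamethasone 1 µM libraries of the same number, these correlations were -0.204, -0.083 and -0.033. They were 0.238, 0.176 and 0.193 for hydrocortisone 10 µM, 0.163, -0.048 and 0.209 for dexamethasone 0.01 µM and 0.135, 0.186 and 0.067 for hydrocortisone 0.01 µM, so hydrocortisone 10 µM is the 1 treatment in which each pair was over 0.1. A replicate block of pairs gave 259 calls for the washout change, of which 196 were shared with the 321. A replicate block by number gave 335. Of 79 gene results, 41 kept their state, called or not, and their direction in every alternative. Among these are the washout changes of FKBP5, PER1, DUSP1 and NR3C1, which were not called to begin with. Another 37 lost the call in at least 1 alternative, 0 reversed, and KLF9 gained a call in 4 of 33. Depth limits low genes: those under 1 log2 CPM were not ranked by the naming rule for the washout change.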

Other observations

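Gene groups not yet described gave between 0 and 3 calls each for the washout change, beside 1.91% of all genes. Of 17 tested genes for the receptor, its chaperones and steroid handling, HSP90AB1, the chaperone that holds the unbound receptor, was called higher (0.32), a call lost in 4 of 33 alternatives, and ABCB1, a drug and steroid efflux pump, lower (-0.55), a call lost in 5 of 33, the vehicle of the high dose alone among them. Of 14 heat shock genes 3 were called, all higher: HSPD1 (0.38), HSPH1 (0.56) and DNAJA1 (0.34), calls lost in 3, 2 and 17 of 33 alternatives in that order; the list's median was 0.15. MT2A was 1 of 5 metallothioneins called (-0.46), while its vehicle libraries differed between the days by -0.39 (adjusted p = 4.42e-07). Its call was lost with the vehicle of the high dose alone. Of 21 cytokine and NF-kB genes IL11 was called, with a list median of 0.27. Against vehicle, 9 of the 21 were called higher and 1 lower on day 6, beside 6.18% and 5.93% of all genes. On day 3, 10 were called higher and 4 lower, beside 14.8% and 14.7%. CXCL8, a neutrophil chemokine named after its values were seen, was higher than vehicle by 2.02 ± 0.64 on day 6 and 2.03 ± 0.31 on day 3 (log2, adjusted p = 0.00921 and 5.7e-06). Of 18 p53 targets TP53I3 was called (-0.55, adjusted p = 0.0456, a call lost in 22 of 33 alternatives), while 9 were called higher than vehicle on day 6 and 13 on day 3, beside 6.18% and 14.8% of all genes.

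Among other lists edgeR's quasi-likelihood test called 0 genes for the washout change. At an unadjusted p below 0.05 there was 1 of 18 clock genes (median 0.08), 2 of 22 interferon-stimulated genes (-0.13), 1 of 30 S-phase genes (0.05), 2 of 30 G2/M genes (-0.02), 16 of 24 cholesterol synthesis genes (-0.30), 3 of 21 unfolded protein and integrated stress response genes (-0.03), 4 of 16 oxidative stress genes (0.10), 4 of 22 hypoxia and glycolysis genes (0.11) and 0 of 13 mitochondrially encoded genes (0.20), against 2009 of all 16816 genes. DESeq2 called 1 oxidative stress gene and 0 in the other lists just named. The tests of cell type markers gave 0 calls by either tool, with 1 of 6 microglia, 5 of 14 fibroblast and pericyte, 1 of 4 astrocyte, 0 of 3 neuron, 0 of 3 oligodendrocyte and 0 of 3 endothelial markers at an unadjusted p below 0.05. Interferon-stimulated genes were called higher than vehicle in 10 of 22 on day 6 and in 15 on day 3, beside the same shares of all genes. Cholesterol synthesis genes had 23 of 24 values below 0: on day 6, 0 were called higher and 2 lower than vehicle (6.18% and 5.93% of all genes), and on day 3, 14 were called higher and 0 lower (14.8% and 14.7%).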
